A study of Homo sapiens with 9 samples.

Results

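Replication-dependent histone genes lie in clusters on human chromosomes 6 and 1, and 55 genomic intervals of the deposited files represent them here, out of 55527 intervals in all. Membership was set by position alone: an interval had to span under 2000 bases and lie wholly in 1 of 5 windows of the hg19 build. On chromosome 6, window 6a runs from 26017000 to 26286000, window 6b from 27093000 to 27116000 and window 6c from 27775000 to 27862000. On chromosome 1, window 1a runs from 149783000 to 149860000 and window 1b from 228612000 to 228652000. Of the 55 members, 32 lay in window 6a, 3 in 6b, 15 in 6c and 5 in 1b; the files list 0 intervals under 2000 bases in window 1a. The files pair no interval with a gene name, so each member is given by its hg19 position and by its distance from the start of its window. Whether a given member is a histone gene, a pseudogene or another short transcript cannot be read from the files. The 5 members under 300 bases are shorter than the coding sequence of any core or linker histone.

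The cells were MDA-MB-231, a human triple-negative breast cancer line, infected with lentivirus carrying a short hairpin RNA and selected with puromycin. The control group carried a scrambled hairpin (shScr), and the other groups carried either of 2 hairpins that target CTDP1, a phosphatase of the RNA polymerase II tail (shCTDP1-#1 and shCTDP1-#2). Each of the 3 groups held 3 libraries, all from the same line, and the comparisons ask how targeting CTDP1 changed transcript levels. The labels do not state whether libraries within a group are separate cultures, so the p-values cover library-to-library spread that may be only technical. The level of CTDP1 and the markers of the line were not analysed here, since they need gene names.

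Histones H2A, H2B, H3 and H4 form the core of the nucleosome, and histone H1 binds the linker DNA between nucleosomes. Most of their supply in dividing cells comes from replication-dependent genes, which are short, lack introns and are transcribed mainly during S phase. Their transcripts normally end in a conserved stem-loop, bound by the stem-loop binding protein, after a cleavage guided by the U7 small nuclear ribonucleoprotein. They are then left without a poly(A) tail. When a histone gene is read past that site to a downstream polyadenylation signal, a polyadenylated histone transcript results. The library kit named in the labels, TruSeq RNA v2, captures poly(A) RNA in its standard protocol, so these values need not follow the normal, unpolyadenylated histone transcripts. Polyadenylated transcripts and carried-over unpolyadenylated ones cannot be told apart in these files.

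All values are TPM, an abundance unit of RSEM, which scale for transcript length and to the same total in every library. The read counts behind TPM are lost, so sequencing depth is unknown and counting error cannot be given. The lowest value above 0 among the 55 members was 0.07 TPM, found only in the members of 1343 and 1409 bases. Because TPM scale for length, the lowest value above 0 depends on span. Among members of at least 300 and under 600 bases it was 0.25 TPM. Values near these limits lie at the bottom of what the files show for members of that span. Many histone genes have near-identical copies, and reads that match several copies can be divided among them, so levels of single members are uncertain in that respect.

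Most members were at or near 0 TPM. Above 0 in some library were 35 of the 55 members, beside 28927 of all 55527 intervals. Of the 55, 20 were listed at 0 in all 9 libraries, 13 were above 0 in only 1 or 2 libraries, 7 in 3 to 8 libraries and 15 in all 9. The shScr libraries listed 19, 21 and 20 members above 0, the shCTDP1-#1 libraries 22, 21 and 25, and the shCTDP1-#2 libraries 23, 23 and 26. The shScr and shCTDP1-#1 ranges met at 21, and all shCTDP1-#2 libraries lay above all shScr libraries. Over the whole files, between 19553 and 20063 intervals were above 0 with shScr and between 21562 and 22491 in the knockdown libraries. For the 23452 intervals under 2000 bases on the chromosomes these ranges were 2370 to 2550 and 2735 to 2994. The part of this wider shift in the members' count was not tested. At 1 TPM or more, members numbered 12 to 13 per library with shScr, 15 to 17 with shCTDP1-#1 and 18 to 21 with shCTDP1-#2.

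Runs of neighbouring members were at or near 0 TPM. Since the kit captures poly(A) RNA in its standard protocol, a value of 0 need not mean that a gene is silent. In window 6a, 18 consecutive members from 26188938 to 26273622 failed the filter used for testing (at least 1 TPM in at least 3 libraries), 13 of them at 0 in every library and none above 0.64 TPM. In window 6c, 5 consecutive members from 27831840 to 27841289 also stayed at or below 0.64 TPM, 2 of them at 0 in every library. All 5 members of window 1b, on chromosome 1, were at or near 0: 4 were at 0 throughout and the other, at 228645065 to 228645560, was at 0.31 TPM in a single shCTDP1-#1 library. No knockdown library lifted any of these members to 1 TPM.

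Summed over all 55 members, the level was higher with each hairpin. The sum was 125, 128 and 135 TPM in the shScr libraries, 264, 258 and 246 TPM with shCTDP1-#1, and 382, 419.6 and 406 TPM with shCTDP1-#2. The groups did not overlap, and the shCTDP1-#2 libraries lay above the shCTDP1-#1 libraries. The group means were 129 ± 5 TPM (SD, n = 3), 256 ± 9 TPM and 402 ± 19 TPM, which are 1.98 and 3.11 times the shScr mean for shCTDP1-#1 and shCTDP1-#2. No test was made on this sum. A single member held between 62.1% and 68.5% of it in each library. Without that member the sums were 45.2 ± 3.8, 89.8 ± 3.1 and 132 ± 11 TPM, or 1.99 and 2.91 times the shScr mean. The ratios were thus similar without it, although it made up most of the rise in TPM. Its own means were 84.2, 166 and 271 TPM in shScr, shCTDP1-#1 and shCTDP1-#2. In bulk RNA, a different share of cells in S phase and a different amount of RNA per cell cannot be told apart. Mitochondrial transcripts took 4.47% of shScr replicate 1 and between 1.12% and 2.28% of the other libraries; rescaled without them, the mean sums were 133, 262 and 412 TPM in shScr, shCTDP1-#1 and shCTDP1-#2.

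**Figure D1:**
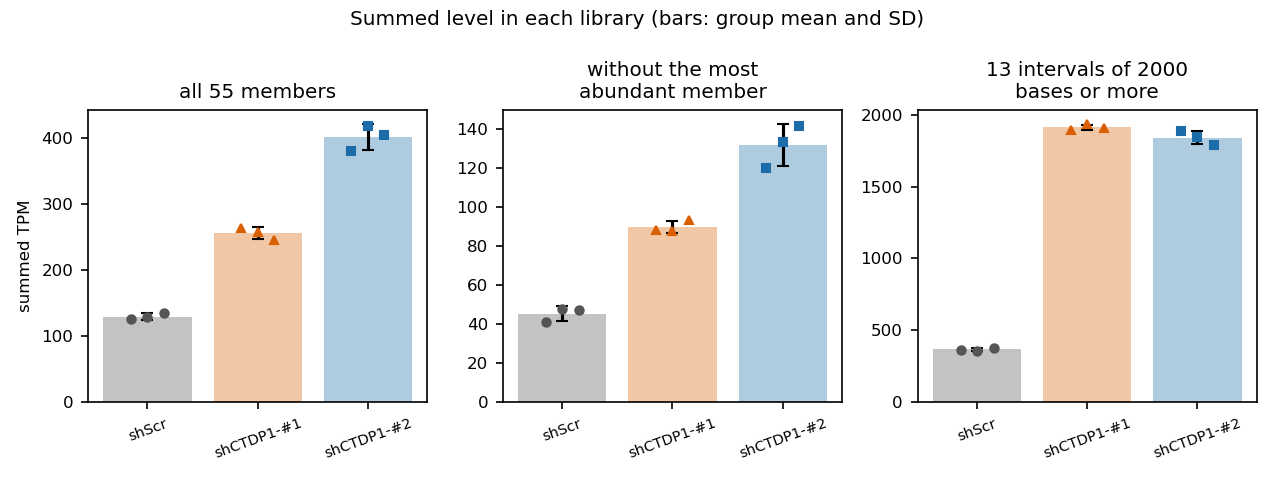
Summed TPM in each library (points) with the group mean and SD (bars) for all 55 members, for the members without the most abundant one, and for the 13 intervals of 2000 bases or more in the same windows. The members' sum averages 129, 256 and 402 TPM in shScr, shCTDP1-#1 and shCTDP1-#2, while the longer intervals average 366, 1915 and 1844 TPM.

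The level was carried by a few places. Window 6a held sums of 101 ± 3 TPM (SD, n = 3) with shScr, 184 ± 11 with shCTDP1-#1 and 306 ± 14 with shCTDP1-#2. Window 6c held 26.7 ± 3.7, 69.6 ± 1.6 and 93.1 ± 13 TPM. The 3 members of window 6b together held only 2.17 ± 0.35, 2.65 ± 1.02 and 3.26 ± 0.49 TPM. By span, 41 of the 55 members measured at least 300 and under 600 bases, the range of core histone transcripts, and their highest mean over the 9 libraries was 13.4 TPM. The 6 members of at least 600 and under 1000 bases, a range that includes linker histone genes, held the most abundant member at a mean of 174 TPM. The 3 members of 1000 bases or more did not exceed a mean of 1.03 TPM, and 4 of the 5 members under 300 bases were at 0 throughout.

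Of the 55 members, 21 passed the filter and were tested with limma on log2(TPM + 1) in a fit of all 15011 intervals that passed; the 34 others stayed at or below 2.56 TPM in every library. Of the 21, 7 had no shScr library at 1 TPM or more and so passed through the knockdown libraries in which they were high. They start at 26043455, 26044217, 26107640, 26183958, 27107076, 27775257 and 27805658. For 1 of these, at 26107640 to 26108364, only shCTDP1-#2 libraries reached 1 TPM, so its differences from both other groups follow that choice. The counts of called members below describe them and support nothing by themselves. A member is called where the Benjamini-Hochberg adjusted p of limma, taken over all tested intervals, is under 0.05. Changes are differences of log2(TPM + 1); for members at low level this gives a smaller change than the TPM themselves would.

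With shCTDP1-#1, 10 of the 21 tested members rose against shScr, 3 fell and 8 were not called. The background was wide: 35.4% of all tested intervals rose and 27.7% fell, and of the 1264 tested intervals under 2000 bases on the chromosomes 27.9% rose and 12.7% fell. The members' shares were 47.6% and 14.3%. With shCTDP1-#2, 13 members rose, 0 fell and 8 were not called, or 61.9% and 0%, against 39.5% and 24.6% of all tested intervals and 32.6% and 11.7% of the short ones. Both hairpins raised 9 members and lowered 0. Both comparisons share the 3 shScr libraries. Over all tested intervals 26.4% rose and 16.5% fell with both, and over the short ones 21.6% and 7.04%. At an unadjusted p under 0.05, limma also gave 0 members lower with shCTDP1-#2 and 0 lower with both. The shares over all tested intervals at this threshold were not computed. With median-of-ratios scaling, or without shCTDP1-#2 replicate 2, 1 member was called lower with shCTDP1-#2 and with both hairpins, the one at 27782112 to 27782607. Another, at 27114861 to 27115317, was called lower with shCTDP1-#2 without shCTDP1-#1 replicate 1, or when only the groups compared were fitted.

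The median log2 change of the 21 tested members was 0.39 with shCTDP1-#1 and 1.05 with shCTDP1-#2. Over all tested intervals it was 0.07 and 0.13, and over the short ones 0.19 and 0.26. The members' medians depended on the settings. With a pseudocount of 0.1 TPM they were 0.98 and 1.82. With no filter, over all 35 members above 0 in any library, they were 0.033 and 0.15, beside 0.038 and 0.047 over all intervals, so the shCTDP1-#1 median was then no higher than that of all intervals. The shCTDP1-#1 median was 0.22 without shScr replicate 3 and also 0.22 without shCTDP1-#1 replicate 3, near the 0.19 of the short intervals. That value is from all 9 libraries and was not computed without either of these. Among the 14 tested members with an shScr library at 1 TPM or more, 6 rose and 3 fell with shCTDP1-#1, with a median of -0.03, and 8 rose and 0 fell with shCTDP1-#2, with a median of 0.94. Among the other 7, 4 and 5 rose. The same split was not made for all or for the short intervals, so these counts say nothing particular about the members.

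**Figure D2:**
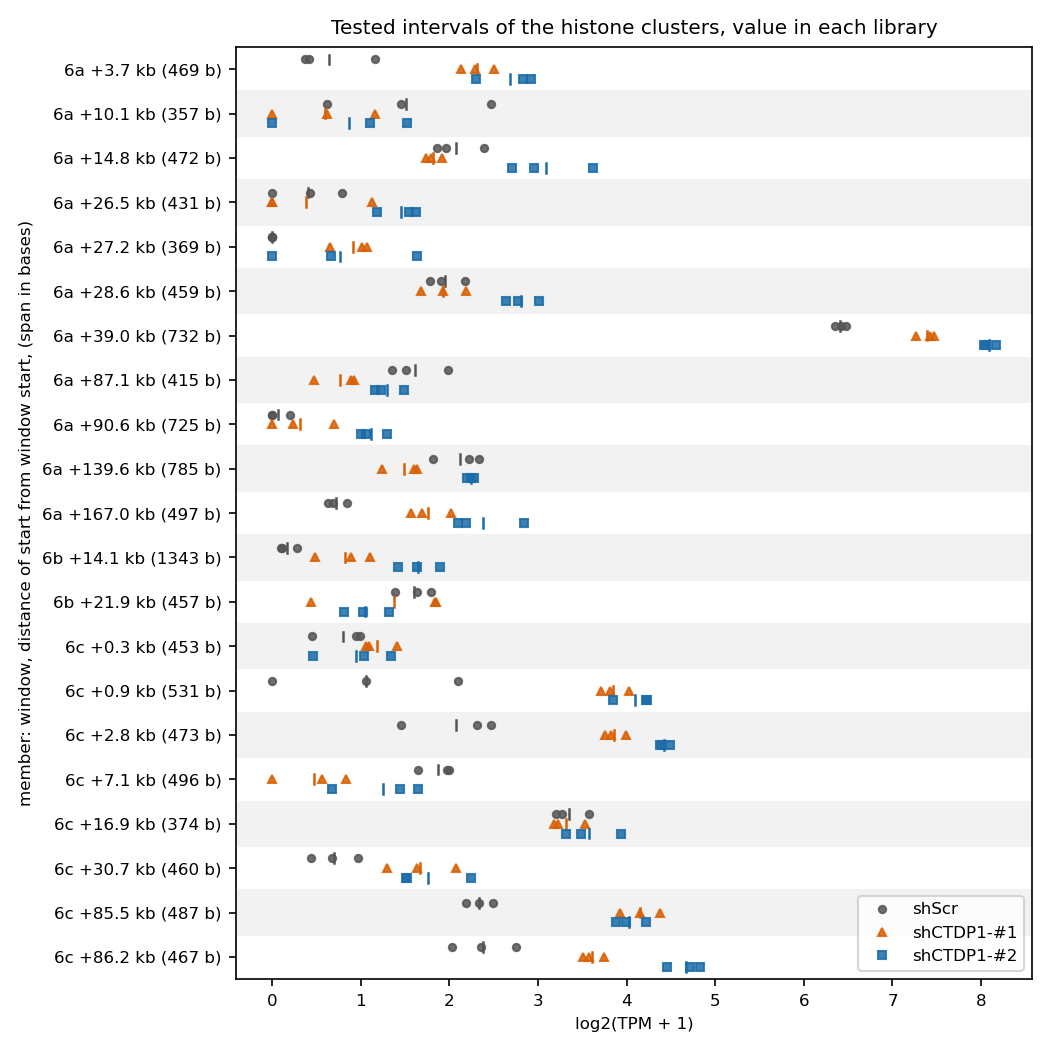
Value of each of the 21 tested members in each library on the log2(TPM + 1) scale, with a tick at the group mean. Rows give the window, the distance of the member's start from the window start and its span; the member 39.0 kb into window 6a is far above all others, and its 3 groups do not overlap.

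The most abundant member by far was the 732-base interval at 26055968 to 26056699, 39.0 kb into window 6a. It stood at 84.4, 80.5 and 87.7 TPM with shScr, at 176, 170.4 and 153 TPM with shCTDP1-#1 and at 262, 286 and 264 TPM with shCTDP1-#2. The groups followed each other without overlap. Its log2 change was 0.97 (SE 0.06, limma adjusted p = 2.2e-07) with shCTDP1-#1 and 1.67 (SE 0.06, adjusted p = 7.9e-09) with shCTDP1-#2. The second hairpin also stood above the first, by 0.70 on the log2 scale (SE 0.06, adjusted p = 4.9e-06).

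After it came 5 members of window 6c with means between 9.81 and 13.4 TPM over the 9 libraries, and 4 of them rose with both hairpins. At the far end of the window, the 467-base member at 27861203 to 27861669 averaged 4.31 ± 1.33 TPM (SD, n = 3) with shScr, 11.2 ± 1.1 with shCTDP1-#1 and 24.6 ± 3.4 with shCTDP1-#2. Its libraries stood at 4.12, 3.09 and 5.73 TPM, then 10.9, 12.4 and 10.3 TPM, then 20.9, 25.3 and 27.5 TPM. These groups did not overlap either, and the order was that of the most abundant member. Against shScr its log2 change was 1.23 with the first hairpin (SE 0.17, limma adjusted p = 9.9e-05) and 2.29 with the second (SE 0.17, adjusted p = 1.0e-06), and the hairpins differed by 1.06 (SE 0.17, adjusted p = 0.00043).

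Its neighbour at 27860477 to 27860963, 239 bases away, rose with both hairpins to levels that overlapped. It was at 3.55, 4.02 and 4.63 TPM with shScr, 14.2, 16.8 and 19.8 TPM with shCTDP1-#1 and 13.7, 14.9 and 17.6 TPM with shCTDP1-#2. The knockdown groups overlapped each other and lay above shScr, with a log2 change of 1.81 for shCTDP1-#1 (SE 0.13, limma adjusted p = 1.0e-06) and of 1.70 for shCTDP1-#2 (SE 0.13, adjusted p = 1.8e-06). The hairpins were not called different here (log2 difference -0.12, SE 0.13, adjusted p = 0.49). This member shares 408 of its 487 bases with a longer listed interval, 27858093 to 27860884. Without strand, reads of both cannot be told apart. The longer interval was at 0.623 ± 0.542, 2.12 ± 0.67 and 4.85 ± 1.76 TPM in shScr, shCTDP1-#1 and shCTDP1-#2.

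At the near end of window 6c, the 531-base member at 27775899 to 27776429 showed the largest change of the tested members with both hairpins. It was at 0, 3.29 and 1.08 TPM with shScr, 15.3, 13.02 and 12.1 TPM with shCTDP1-#1 and 13.3, 17.7 and 17.6 TPM with shCTDP1-#2. The shScr libraries were spread widely, yet all lay below every knockdown library. Against shScr it was 2.80 higher on the log2 scale with shCTDP1-#1 (SE 0.43, limma adjusted p = 0.00043) and 3.04 higher with shCTDP1-#2 (SE 0.43, adjusted p = 0.00026). The member at 27775257 to 27775709, only 189 bases away, was at 0.757 ± 0.344, 1.29 ± 0.32 and 0.987 ± 0.578 TPM in the same order and was called with neither hairpin.

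Next along, the 473-base member at 27777842 to 27778314 rose as well. Its libraries were at 1.73, 4.54 and 3.95 TPM with shScr, 14.9, 12.5 and 13.2 TPM with shCTDP1-#1 and 20.1, 19.8 and 21.4 TPM with shCTDP1-#2. No group overlapped another. Its log2 change was 1.78 with shCTDP1-#1 (SE 0.22, limma adjusted p = 3.9e-05) and 2.34 with shCTDP1-#2 (SE 0.22, adjusted p = 5.2e-06), and the difference between the hairpins, 0.56 (SE 0.22), had an adjusted p of 0.052. This difference was called without shScr replicate 1 (limma adjusted p = 0.00067) or 2 (adjusted p = 0.030). Rescaling without mitochondrial intervals (adjusted p = 0.0465) and fitting only the groups compared (adjusted p = 0.000775) also gave a call.

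The remaining abundant member was called with neither hairpin. At 27791884 to 27792257, the 374-base interval was at 8.20, 8.66 and 10.9 TPM with shScr, 8.38, 10.6 and 8.07 TPM with shCTDP1-#1 and 8.95, 10.2 and 14.3 TPM with shCTDP1-#2. The groups overlapped, and neither the log2 change of -0.03 with shCTDP1-#1 (SE 0.17, limma adjusted p = 0.87) nor that of 0.23 with shCTDP1-#2 (SE 0.17, adjusted p = 0.26) was called.

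Lower in level, 2 members of window 6a rose with both hairpins beside the most abundant one. The 469-base member at 26020718 to 26021186, 3.7 kb into the window, was at 0.29, 1.23 and 0.33 TPM with shScr, 3.37, 3.87 and 4.67 TPM with shCTDP1-#1 and 3.93, 6.09 and 6.58 TPM with shCTDP1-#2. The member of 497 bases at 26183958 to 26184454 borders the long run of members that failed the filter. It was at 0.79, 0.55 and 0.61 TPM, then 3.04, 2.22 and 1.97 TPM, then 3.56, 6.14 and 3.27 TPM. In both, every knockdown library exceeded every shScr library. The first had a log2 change of 1.66 with shCTDP1-#1 (SE 0.24, limma adjusted p = 0.00013) and of 2.04 with shCTDP1-#2 (SE 0.24, adjusted p = 3.0e-05). Those of the second were 1.04 (SE 0.21, adjusted p = 0.0013) and 1.65 (SE 0.21, adjusted p = 5.1e-05). The second had no shScr library at 1 TPM or more and passed the filter through the knockdown libraries, so its calls partly follow that choice. The remaining members called higher with both hairpins were the 460-base interval at 27805658 to 27806117 and a nested member of window 6b. The former had log2 changes of 0.98 and 1.07. Both passed the filter in the same way as the member at 26183958, so the same limit holds for their calls.

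That nested member, at 27107076 to 27108418, is with 1343 bases the second longest of the 55. All its bases lie inside the interval 27106073 to 27114619, which stood at 225 ± 8, 1016 ± 33 and 903 ± 19 TPM in shScr, shCTDP1-#1 and shCTDP1-#2. The member itself was at 0.07, 0.21 and 0.08 TPM, then 1.15, 0.40 and 0.85 TPM, then 2.72, 2.11 and 1.67 TPM. It was 0.66 higher on the log2 scale with shCTDP1-#1 (SE 0.20, limma adjusted p = 0.015) and 1.49 higher with shCTDP1-#2 (SE 0.20, adjusted p = 9.7e-05). Without shCTDP1-#1 replicate 1 the first of these was 0.53 (adjusted p = 0.063) and was not called. The part of reads from the host interval in these low values was not tested. The longest member, of 1409 bases at 26204858 to 26206266, did not exceed 0.07 TPM. Just outside the span limit, the interval of 2239 bases at 27100832 to 27103070 averaged 1.38, 7.79 and 21.2 TPM in the 3 groups, and that of 2454 bases at 26197068 to 26199521 did not exceed 0.37 TPM.

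**Figure D3:**
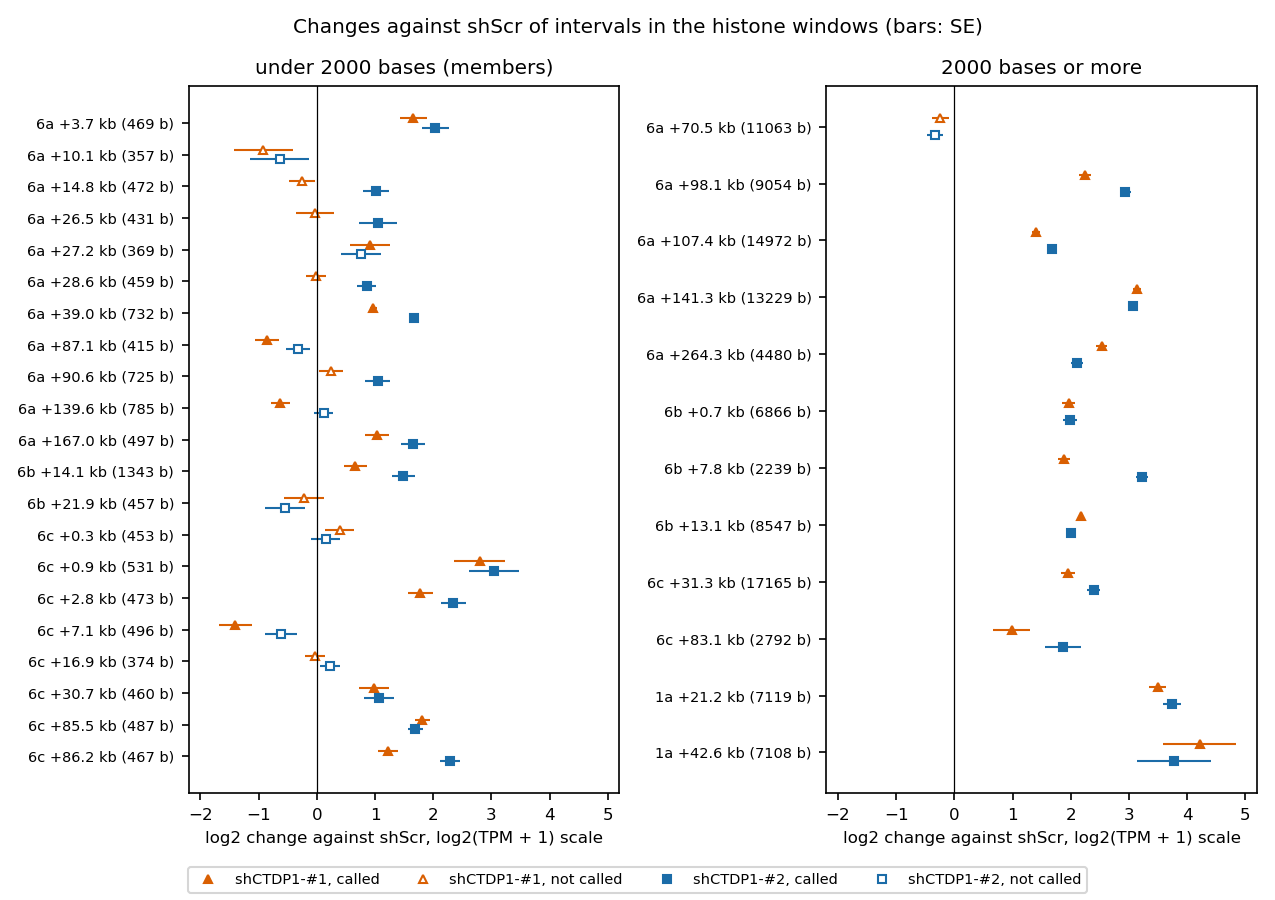
Log2 change against shScr (log2(TPM + 1) scale) with its SE for each tested interval of the windows, members on the left and intervals of 2000 bases or more on the right; filled symbols passed the limma test and open ones did not. The members' changes span -1.40 to 2.80 (shCTDP1-#1) and -0.64 to 3.04 (shCTDP1-#2), whereas 11 of the 12 longer intervals are higher with both hairpins.

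A few members fell with shCTDP1-#1. The 496-base member at 27782112 to 27782607 in window 6c went from 2.91, 2.99 and 2.12 TPM with shScr to 0.48, 0 and 0.78 TPM, a log2 change of -1.40 (SE 0.28, limma adjusted p = 0.0013). With shCTDP1-#2 it was at 0.60, 2.12 and 1.71 TPM, reaching the lowest shScr value, and the change of -0.62 (SE 0.28, adjusted p = 0.079) was not called. Without shCTDP1-#2 replicate 2 that change was -0.81 (adjusted p = 0.040) and was called. In window 6a, the member at 26104104 to 26104518 fell by 0.85 on the log2 scale (SE 0.21, adjusted p = 0.0042), from 2.11 ± 0.73 to 0.71 ± 0.28 TPM, and the member at 26156559 to 26157343 fell by 0.63 (SE 0.16, adjusted p = 0.0065), from 3.40 ± 0.78 to 1.83 ± 0.41 TPM. Neither was called with shCTDP1-#2, where they averaged 1.47 ± 0.30 and 3.72 ± 0.14 TPM.

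Where the hairpins differed, shCTDP1-#2 was the higher. In shCTDP1-#2 against shCTDP1-#1, 10 of the 21 tested members were higher, 0 were lower and 11 were not called. Tested against a fold change of 1.5 with limma's treat, 0 of these 10 differences were called, those of single members below included. At an unadjusted p under 0.05 limma gave 12 higher and 0 lower. Shares over all tested intervals were computed neither for this threshold nor for treat. Without shCTDP1-#1 replicate 1, 1 member was called lower, the one at 27114861 to 27115317. In the background, at a limma adjusted p under 0.05, 30.2% of all tested intervals were higher and 20% lower, and of the short ones 18.7% and 9.18%. The median log2 difference was 0.56 for the members, 0.07 for all tested intervals and 0.08 for the short ones. Of the 10 members, 8 were also higher than shScr with shCTDP1-#2, and 2 had fallen with shCTDP1-#1 and were not called with shCTDP1-#2.

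The largest difference between hairpins was at 26031817 to 26032288, a 472-base member 14.8 kb into window 6a. It was at 2.89, 4.25 and 2.64 TPM with shScr, 2.33, 2.78 and 2.46 TPM with shCTDP1-#1 and 11.3, 6.73 and 5.53 TPM with shCTDP1-#2. The shCTDP1-#1 libraries overlapped shScr and the shCTDP1-#2 libraries lay above both. The log2 difference between the hairpins was 1.28 (SE 0.22, limma adjusted p = 0.00079), while the changes against shScr were -0.26 (adjusted p = 0.34) and 1.02 (adjusted p = 0.0023). A like pattern was seen 28.6 kb into the window, in the 459-base member at 26045639 to 26046097. It was at 2.73, 3.51 and 2.43 TPM, then 2.81, 2.20 and 3.56 TPM, then 5.21, 7.08 and 5.81 TPM, and the hairpins differed by 0.87 (SE 0.17, adjusted p = 0.0014).

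A member between them in position, at 26043455 to 26043885, was lower in level. It was at 0.34, 0.72 and 0 TPM with shScr, 1.19, 0 and 0 TPM with shCTDP1-#1 and 2.09, 1.26 and 1.92 TPM with shCTDP1-#2. The hairpins differed by 1.07 (SE 0.32, limma adjusted p = 0.018), but leaving out shCTDP1-#1 replicate 2 or 3, or shCTDP1-#2 replicate 1 or 3, raised the adjusted p to between 0.053 and 0.067. Against shScr it was called higher with shCTDP1-#2 (log2 change 1.05, adjusted p = 0.016), a call lost without shScr replicate 3 or shCTDP1-#2 replicate 1 and with a pseudocount of 0.1 TPM (adjusted p from 0.051 to 0.067). Its neighbour 331 bases on, at 26044217 to 26044585, was listed at 0 in every shScr library, at 1.10, 0.57 and 1.01 TPM with shCTDP1-#1 and at 0, 0.58 and 2.11 TPM with shCTDP1-#2. It was called higher with shCTDP1-#1 (limma adjusted p = 0.041) and not with shCTDP1-#2 (adjusted p = 0.076). The call with shCTDP1-#1 was lost on leaving out any 1 of the shScr libraries or shCTDP1-#2 replicate 2. It was also lost with no filter (adjusted p = 0.077) and without the trend and robust options (adjusted p = 0.053). Without shCTDP1-#1 replicate 1 or 3, or shCTDP1-#2 replicate 3, this member failed the filter. Without shCTDP1-#2 replicate 1 its change with shCTDP1-#2 was 1.15 and was called (adjusted p = 0.0068). The members at 26043455 and 26044217 both passed the filter through knockdown libraries, so their calls partly follow that choice.

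Of the tested members, 4 were called higher with shCTDP1-#2 and not called with shCTDP1-#1, and 1 the other way round. Another 3 were called lower with shCTDP1-#1 and not called with shCTDP1-#2, and 4 were called with neither hairpin. The shares of these classes over all tested intervals were not computed, so the counts say nothing particular about the members. Beside those described, the member at 26107640 to 26108364 was one of the first 4, at 0.05 ± 0.09 TPM with shScr (SD, n = 3), 0.267 ± 0.319 with shCTDP1-#1 and 1.18 ± 0.24 with shCTDP1-#2. Of those called with neither, the member at 27114861 to 27115317 averaged 2.05 ± 0.42, 1.85 ± 1.30 and 1.09 ± 0.38 TPM. The member at 26027124 to 26027480 had overlapping groups, at 4.55, 0.53 and 1.73 TPM with shScr, 0, 1.24 and 0.54 TPM with shCTDP1-#1 and 1.86, 0 and 1.14 TPM with shCTDP1-#2. It was called lower with shCTDP1-#1 only when shScr replicate 2 was left out (log2 change -1.37, limma adjusted p = 0.038).

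Among the members that were not tested, 14 were above 0 in some library. The highest was at 27798952 to 27799305, with 2.56, 0 and 1.95 TPM in the shCTDP1-#1 libraries. Over all 55 members, 12 were at 0 in every shScr library and above 0 in some knockdown library, and 1, at 27782822 to 27783267, was above 0 only with shScr, at 0.32 TPM in replicate 1. A value above 0 in all 6 knockdown libraries with 0 in every shScr library was found for 0 members. The counts of 12 and 1 set 6 knockdown libraries against 3 shScr libraries. Over the whole files, every knockdown library also had more intervals above 0 than any shScr library. The matching shares over all intervals were not computed, so these counts say nothing particular about the members.

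Neighbouring members were also compared in pairs. There were 14 pairs of neighbouring members with a gap under 1000 bases; in 9 pairs neither member was tested and in 2 pairs 1 member was. In the 3 pairs with both tested, 1 pair rose together with both hairpins, 1 pair held a member that rose beside one that was not called, and in the third each member was called with a different hairpin, both calls being among those lost on leaving out 1 library. Of the 55 members, 4 shared bases with another listed interval, in each case an interval of 2000 bases or more, and 0 with another member.

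**Figure D4:**
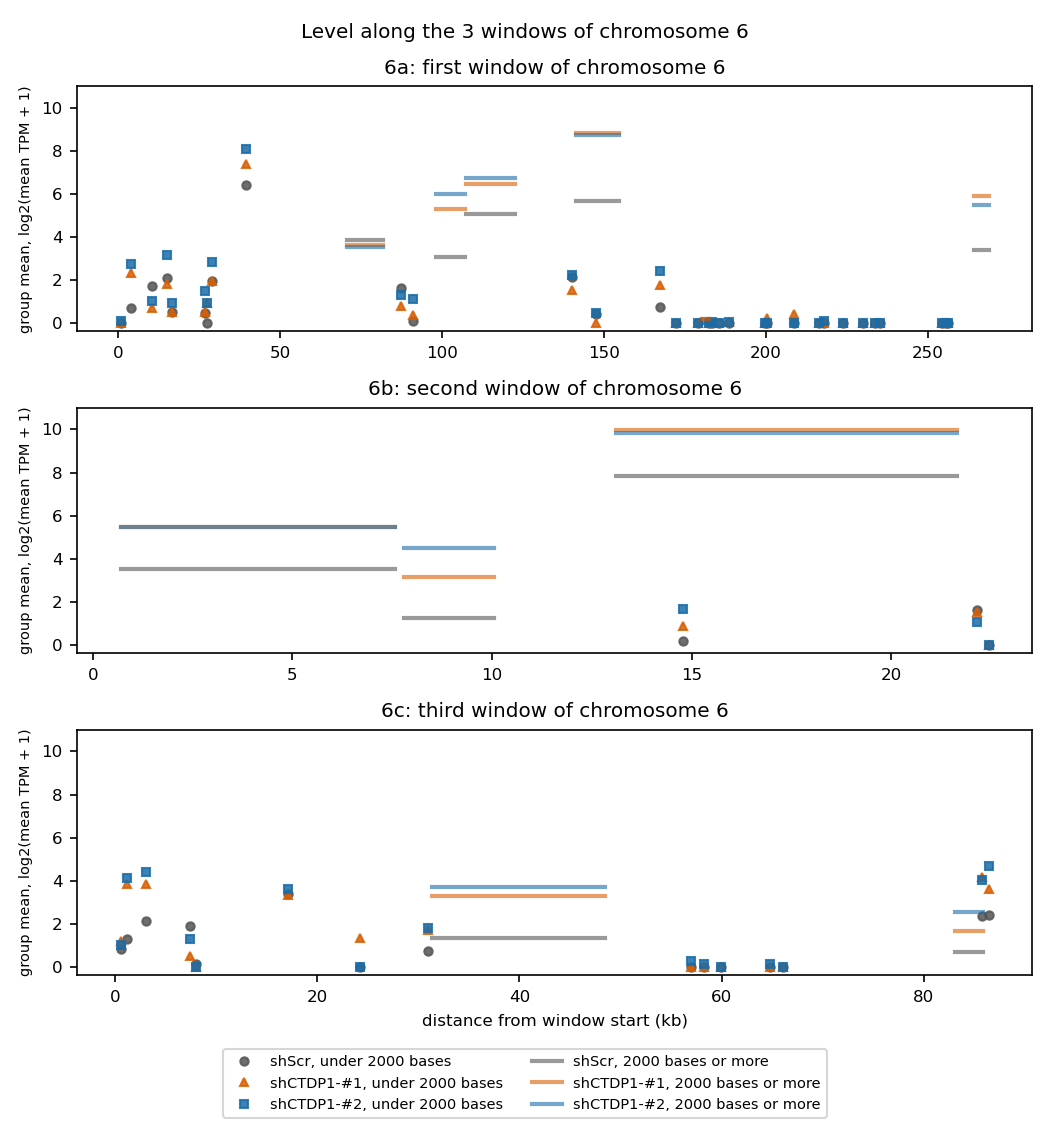
Group mean level, as log2(mean TPM + 1), against distance from the window start in the 3 windows of chromosome 6. Symbols are members and horizontal lines are intervals of 2000 bases or more, tested or not, drawn at their length. The members from about 172 kb to 256 kb into window 6a lie at or near 0 in all groups. The lines of both hairpins lie above those of shScr for the longer intervals, except those 70.5 kb and 180.1 kb into window 6a. The latter was not tested and averaged 0.12, 0.12 and 0 TPM in shScr, shCTDP1-#1 and shCTDP1-#2.

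The same windows hold 13 intervals of 2000 bases or more, outside the rule, whose summed level rose more. Of the 12 that were tested, 11 rose with each hairpin and 0 fell, with median log2 changes of 2.07 and 2.25. Their summed level went from 366 ± 11 TPM (SD, n = 3) with shScr to 1915 ± 20 with shCTDP1-#1 and 1844 ± 48 with shCTDP1-#2, which are 5.24 and 5.04 times the shScr mean. The interval at 26158349 to 26171577 rose from 50.2 ± 4.9 to 447 ± 12 and 427 ± 21 TPM, a log2 change of 3.13 and 3.07. In window 1a, which holds no member, 149804221 to 149811339 rose from 12.1 ± 2.6 to 146 ± 14 and 173 ± 23 TPM. The exception was 26087509 to 26098571, at 13.4 ± 1.9, 11.2 ± 1.5 and 10.5 ± 1.7 TPM, which was not called. The members' share of all TPM in the windows accordingly went from 26.1% ± 0.3 (SD, n = 3) with shScr to 11.8% ± 0.4 with shCTDP1-#1 and 17.9% ± 1.0 with shCTDP1-#2, without overlap between groups.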

How the data were processed

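RNA from MDA-MB-231 cells was sequenced in 9 libraries, 3 per hairpin. The submitters' processing notes name STAR, RSEM and hg19, without versions; the annotation is not given in the sources used here. Each library has a file of coordinates and a value. The values the authors deposited are read as TPM, since each file sums to the total of that unit, which RSEM reports. Depth is therefore unknown.

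Files were joined on their coordinates, and 2246 rows with coordinates listed more than one time were dropped, of which 0 met the rule for members. All 37 mitochondrial intervals equalled those of GENCODE release 29, which shows that starts count from 1. That release is of another build, so no nuclear interval was named and no sequence is printed.

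The filter kept 15011 intervals that reached 1 TPM in 3 or more libraries. Their log2(TPM + 1) was fitted using limma (version 3.58.1, R 4.3.3, statmod 1.5.0) with its trend and robust options, with 9 libraries in one model and 6 residual degrees of freedom, and Benjamini-Hochberg adjustment. The script was tested on simulated data. Alternatives changed the pseudocount, filter, scaling, moderation of variances, size of change tested, libraries fitted, replicate block and treatment of rows with equal coordinates. Members printed in full are those highest in 4 respects: called with both hairpins in one direction without overlap (at most 6), most abundant (6), most different between hairpins (4), and nearest the span limit (2 on each side); others that are named, such as members that fell with 1 hairpin, were chosen after their values were seen. A planned part of the rule, for members at 0 in every shScr library and above 0 in all 6 knockdown libraries, or the reverse, found 0. The members and lists were chosen with earlier results of these data known. Planned lists of histone processing genes and of markers need gene names and were not analysed here.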

Additional observations from a re-analysis of the deposited data

Results flagged for a closer look

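Tested directly against each other, the hairpins differed in 10 of the 21 tested members (limma adjusted p under 0.05 over all tested intervals). In all 10 the level was higher with shCTDP1-#2 than with shCTDP1-#1. The members' shares were 47.6% higher and 0% lower. Over all tested intervals 30.2% were higher and 20% lower in this comparison, and over the short ones 18.7% and 9.18%. Of the 10 members, 4 had no shScr library at 1 TPM or more. In window 6a the log2 differences were 1.28 at 26031817 to 26032288, 1.07 at 26043455 to 26043885, 0.87 at 26045639 to 26046097 and 0.70 at 26055968 to 26056699. Further along they were 0.80 at 26107640 to 26108364, 0.75 at 26156559 to 26157343 and 0.62 at 26183958 to 26184454. In window 6b the difference was 0.82 at 27107076 to 27108418, and in window 6c it was 0.79 at 27782112 to 27782607 and 1.06 at 27861203 to 27861669. The call at 27782112 to 27782607 was lost under 12 alternatives, with an adjusted p of 0.0505 to 0.137, beside the test against a fold change. That at 26183958 to 26184454 was lost without shCTDP1-#1 replicate 2 or 3 or shCTDP1-#2 replicate 2 (0.58, 0.52 and 0.38) and with no filter. The member at 26107640 to 26108364 passed the filter through the shCTDP1-#2 libraries alone, so its difference follows from that choice and supports nothing. Its libraries were at 0, 0.15 and 0 TPM with shScr, 0, 0.18 and 0.62 TPM with shCTDP1-#1 and 1.45, 1.08 and 1.00 TPM with shCTDP1-#2. The level of CTDP1 under each hairpin was not analysed here, so its part in these differences was not tested. Against a fold change of 1.5, 0 of the 10 differences were called. The share over all tested intervals under this test was not computed.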

How the results depend on the processing

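Of the values of the 21 tested members under alternatives, 1158 kept both, 52 lost a call, 14 gained one and 18 turned sign. With a pseudocount of 0.1 TPM the median log2 changes of the tested members were 0.98, 1.82 and 0.70 (shCTDP1-#1 and shCTDP1-#2 against shScr, then shCTDP1-#2 against shCTDP1-#1). With no filter, which brings in more low members, they were 0.033, 0.15 and 0.25. Median-of-ratios scaling called 1 member lower with shCTDP1-#2 and 1 lower with both hairpins, gave a summed shScr level of 135.4 TPM, and moved the median of all intervals with shCTDP1-#2 from 0.13 to 0.01. Against a fold change of 1.5, 6 members were higher and 0 lower with shCTDP1-#1, 8 higher with shCTDP1-#2, and 0 higher between hairpins. Shares over all tested intervals were computed only for the fit described above, so the counts under alternatives say nothing particular about the members. Fitting only the groups compared called 1 member lower with shCTDP1-#2. The cause of these shifts was not tested.

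Counts were also taken leaving out 1 library at a time. For shCTDP1-#1 they ran from 8 to 10 (higher) and 3 to 4 (lower). For shCTDP1-#2 they ran from 12 to 13 and 0 to 1, for the difference between hairpins from 7 to 11 and 0 to 1, and for both hairpins from 8 to 10 and 0 to 1. The median log2 change of the members ran from 0.22 to 0.53 for shCTDP1-#1, 0.92 to 1.18 for shCTDP1-#2 and 0.51 to 0.62 between hairpins. All 18 turned signs came from leaving out 1 library, in values that were not called. The values then spanned, for shCTDP1-#1, -0.40 to 0.17 at 26043455, -0.15 to 0.11 at 26045639, -0.14 to 0.078 at 27791884 and -0.46 to 0.25 at 27114861. For shCTDP1-#2 they spanned -0.037 to 0.22 at 26156559 and -0.042 to 0.39 at 27775257. Between hairpins they spanned -0.047 to 0.71 at 26027124, -0.27 to 0.24 at 26044217, -0.44 to 0.0011 at 27775257 and -0.16 to 0.29 at 27805658.

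The replicate block left 10 higher and 3 lower calls for shCTDP1-#1, 13 and 0 for shCTDP1-#2, 9 and 0 between hairpins, and 9 and 0 for both; the call lost was 27782112 between hairpins (adjusted p = 0.059). Residuals of same-numbered libraries correlated at -0.01 to 0.05 and others at -0.05 to 0.02, all under the 0.1 asked for here, so the numbers were not taken to pair the libraries. As a hint the other way, 8 of 9 libraries correlated best with their own number. Depth is unknown, so what counting error adds to members of low level cannot be given.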
